A study of Mus musculus with 90 samples.

Results

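The regions described here are Trim28 peaks without H3K9me3, found in mouse embryonic stem cells (ESCs). They are the peaks of the pooled TKOL Trim28 list that overlapped, by at least 1 bp, a peak of the pooled DKO0 Trim28 list and no H3K9me3 peak of any of the 8 H3K9me3 lists. Of 56161 pooled TKOL Trim28 peaks, 1861 (3.31%) met this rule. They were chosen by the peak calls for Trim28 in TKOL and DKO0 and for H3K9me3 in all lines, so their Trim28 values in these lists and their lack of an H3K9me3 peak are a description and not a result. The remaining TKOL peaks were 27992 that were shared with DKO0 and overlapped H3K9me3, 11164 without H3K9me3 that were found in TKOL only, and 15144 with H3K9me3 that were found in TKOL only.

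The study followed the activity of Dnmt1 at unmethylated DNA, and its chromatin immunoprecipitation (ChIP) data were deposited as peak lists, with 2 replicates for each mark and line. J1 cells gave rise to TKOL and DKO0, and V6.5 cells were used as WT. Both J1 lines lacked Dnmt3a and Dnmt3b, and TKOL cells also carried a Dnmt1 shRNA. DKO0 cells came from the clonal TKOL line after removal of the shRNA by Cre, so the 2 lines differ in Dnmt1 and in the excision and sorting steps. All lines were grown on feeder cells. By the names the paper gives to its DKO0 lists, the cells were at a later passage for Trim28 and H3K9me3 than for Uhrf1. Uhrf1 was mapped through a 3xFLAG tag in tagged clones, and Trim28 and H3K9me3 with antibodies against the endogenous protein and mark. WT differs from the other lines in both strain and genotype, which cannot be told apart. The labels do not say whether replicates were separate cultures, so the spread between them may be technical. The 6 single-replicate lists held 15995 to 31921 peaks for Trim28, 25953 to 63579 for H3K9me3 and 11440 to 49156 for Uhrf1, and the first TKOL replicate had the longest Trim28 list. The lists give no read counts, so the depth is unknown, and a region outside a list may still hold signal below the caller's threshold.

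Trim28 (also known as KAP1) is a co-repressor that binds no DNA sequence itself and is brought to its sites by KRAB zinc-finger proteins. There it recruits the methyltransferase Setdb1, which places H3K9me3, and in ESCs its best known targets are endogenous retroviruses and other retrotransposons. Uhrf1 is a ubiquitin ligase that recognises hemimethylated DNA and H3K9me3 and guides Dnmt1 to replicated DNA.

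Repeated sequence made up most of the set, and 2 kinds of it are shown because the results are given along them, namely words of 31 bases that many of these peaks share and short tandem repeats. The words were read from the mm9 sequence of the peaks. Word 1 is the commonest, and each next word is the commonest among the peaks that lack the earlier ones. No part is in capitals, since the whole word is what the peaks share.
Word 1: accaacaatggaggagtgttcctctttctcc
Word 2: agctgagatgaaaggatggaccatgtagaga
Word 3: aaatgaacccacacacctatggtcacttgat
Word 4: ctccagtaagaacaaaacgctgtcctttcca
Word 5: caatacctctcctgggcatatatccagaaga
Word 6: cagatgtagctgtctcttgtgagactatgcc

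At least 1 of these words, on either strand, was found in 653 peaks (35.1%). In shared peaks with H3K9me3, which are wider, the share was 15.7%, and in TKOL-only peaks without H3K9me3 it was 11.4%. The words were picked on the members, so that the higher share there is partly given by the choice. Word 4 occurred 666 times in the genome and in 68 of these peaks (3.65%), against 0.761% of shared peaks with H3K9me3. The other words occurred between 13833 and 23686 times each. The annotation used here carries no names of repeats, and none is given to these words.

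For the tandem repeats, the sequence of 200 bases around the midpoint is shown for 5 of the peaks that were found again most often in single-replicate lists. All are given on the + strand of mm9, with the longest perfect tandem run of a unit of 1 to 6 bases in capitals. The peak nearest Arhgap11a was the only one in all 6 single-replicate Trim28 lists, and the others were each in 5 lists and were chosen after their values were seen.
Peak nearest Arhgap11a, chr2:113724983-113725182: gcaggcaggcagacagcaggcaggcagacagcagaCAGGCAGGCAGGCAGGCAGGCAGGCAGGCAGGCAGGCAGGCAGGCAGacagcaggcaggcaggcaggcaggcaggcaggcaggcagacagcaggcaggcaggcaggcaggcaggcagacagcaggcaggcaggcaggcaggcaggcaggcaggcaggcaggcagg
Peak nearest Map2k3, chr11:60777996-60778195: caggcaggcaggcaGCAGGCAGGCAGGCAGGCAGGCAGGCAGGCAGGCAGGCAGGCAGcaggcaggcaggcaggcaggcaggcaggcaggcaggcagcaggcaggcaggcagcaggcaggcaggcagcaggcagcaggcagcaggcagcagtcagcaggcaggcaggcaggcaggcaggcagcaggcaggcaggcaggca
Peak nearest Prdm16, chr4:153891847-153892046: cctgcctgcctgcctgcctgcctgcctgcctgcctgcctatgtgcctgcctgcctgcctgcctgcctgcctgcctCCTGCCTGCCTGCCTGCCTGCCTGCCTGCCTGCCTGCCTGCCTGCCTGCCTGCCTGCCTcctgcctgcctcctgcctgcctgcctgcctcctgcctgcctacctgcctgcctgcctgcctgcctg
Peak nearest Pkp1, chr1:137801057-137801256: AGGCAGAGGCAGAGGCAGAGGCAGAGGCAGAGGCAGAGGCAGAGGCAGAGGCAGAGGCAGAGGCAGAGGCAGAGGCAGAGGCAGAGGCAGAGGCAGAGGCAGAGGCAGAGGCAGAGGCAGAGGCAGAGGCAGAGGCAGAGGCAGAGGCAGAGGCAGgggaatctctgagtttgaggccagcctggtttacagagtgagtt
Peak nearest AC162941.1, chr9:18264738-18264937: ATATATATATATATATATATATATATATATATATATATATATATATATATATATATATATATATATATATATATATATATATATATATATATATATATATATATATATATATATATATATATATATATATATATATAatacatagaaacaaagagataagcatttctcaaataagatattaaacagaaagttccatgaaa

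The first 3 sequences held the 4-base unit AGGC, on either strand, in runs of 44 to 59 bp. The sequence nearest Pkp1 held 156 bp of the 6-base unit AGGCAG, starting at its first base. The G+C content of all these sequences was 63% to 73%. In the 300 bp around the midpoint of the peak nearest Pkp1 the longest run was 199 bp. The sequence nearest AC162941.1 was mostly A and T, with a G+C content of 8.00%. These 5 sequences held 0 CpGs, the substrate of Dnmt1. The window nearest AC162941.1 was moved by 50 bp to leave out an annotated exon.

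A further pair of peaks, also in 5 lists each, lay on chromosomes 13 and 16 and shared a run of 110 bases, shown in capitals. They were near H3K9me3, at 119 and 193 bp, and the words of their central 100 bp occurred a median of 627.5 and 619 times in the genome.
Peak nearest Gm10139, chr13:65620058-65620257: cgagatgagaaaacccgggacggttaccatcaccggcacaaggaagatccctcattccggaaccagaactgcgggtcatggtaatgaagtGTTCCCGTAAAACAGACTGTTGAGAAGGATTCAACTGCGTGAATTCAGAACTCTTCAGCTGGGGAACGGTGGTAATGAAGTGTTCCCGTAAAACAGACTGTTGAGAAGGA
Peak nearest n-R5s30, chr16:5643169-5643368: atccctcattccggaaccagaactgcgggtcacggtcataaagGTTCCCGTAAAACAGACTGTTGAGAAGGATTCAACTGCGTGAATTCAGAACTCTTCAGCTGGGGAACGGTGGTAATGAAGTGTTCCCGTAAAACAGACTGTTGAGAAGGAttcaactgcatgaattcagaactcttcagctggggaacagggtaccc

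Most of these peaks lay beside H3K9me3 rather than far from it, which limits the name given to them. The median distance to the nearest H3K9me3 peak was 504 bp, and 1269 of the 1861 peaks (68.2%) had one within 1 kb. By comparison, of all genome positions where a stretch of 214 bp, the median width of these peaks, held no H3K9me3 peak, 6.57% were within 1 kb of one. Among Trim28 peaks without H3K9me3 found in TKOL only, 34.0% were. A distance of at least 5 kb was seen for 187 of the shared peaks (10.0%). Most neighbouring H3K9me3 peaks came from the pooled lists. The pooled TKOL H3K9me3 list reached within 1 kb of 1017 peaks (54.6%) and the pooled DKO0 list within 1 kb of 703 (37.8%), while single-replicate lists did so for 99 to 236 peaks.

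**Figure D1:**
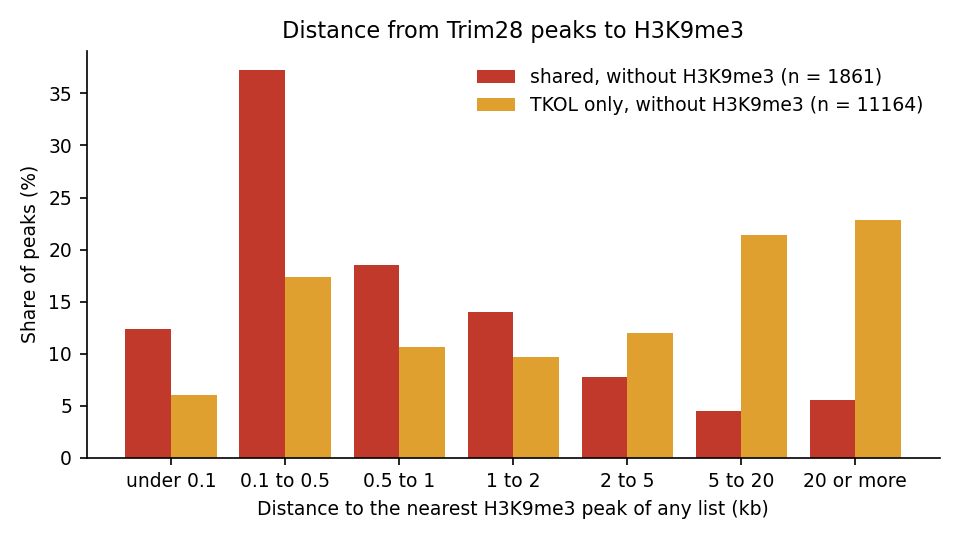
Share of peaks (%) by distance in kb to the nearest H3K9me3 peak of any list, for the 1861 shared Trim28 peaks without H3K9me3 (red) and the 11164 such peaks found in TKOL only (yellow). The red bars are highest between 0.1 and 0.5 kb, with 37.2% of the shared peaks.

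At the edge of the rule, 35 members lay within 10 bp of an H3K9me3 peak, with a median fold enrichment of 2.99 (range 2.69 to 3.83). Just outside it, 24 shared Trim28 peaks overlapped H3K9me3 by at most 10 bp, with a median fold enrichment of 3.06 (range 2.41 to 3.56). Fold enrichment is the ratio of ChIP signal to the local background, as the peak caller MACS2 gave it. The size of the set followed the rule closely. A distance of 1 kb from H3K9me3 left 592 peaks. With Trim28 and H3K9me3 lists both limited to a −log10 q-value of at least 5, the rule gave 166 peaks, which need not be among the 1861. A Trim28 peak in all 4 single-replicate TKOL and DKO0 lists left 9.

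Copy number was then measured for every peak as the median number of mm9 copies of the words of 31 bases in its central 100 bp. The median over these peaks was 3972 copies, against 2273 in shared peaks with H3K9me3 and 7 in TKOL-only peaks without H3K9me3. At least 1000 copies were found for 1173 peaks (63.03%), compared with 68.2% and 29.5% in the other classes. Of 51182 windows placed every 50 kb along the genome, 4.38% reached 1000 copies. Only 58 of these peaks (3.12%) were made of sequence that occurred once, against 83.6% of the genome windows. By this measure nearly all of these peaks, 94.9%, lay in sequence of at least 10 copies, against 97.8% of the shared peaks with H3K9me3. In repeated sequence a read can fit many places, and the part of read placement in these peak calls was not tested.

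The 2 kinds of sequence differed in their distance from H3K9me3. A tandem run of at least 20 bp, in the 300 bp around the midpoint, was present in 29 of the 1674 peaks under 5 kb from H3K9me3 (1.73%) and in 84 of the 187 peaks at 5 kb or more (44.9%). Among the 4944 TKOL-only peaks without H3K9me3 at 5 kb or more, 26.96% had such a run, and in the genome windows 8.91% did. The commonest units were AGAGGC in 29 peaks, A in 21 and AGGC in 13. The 6 words followed the opposite course, and were found in 37.7% of the peaks under 5 kb and in 11.8% of those at 5 kb or more. They were picked on the members, most of which lay under 5 kb, so that this contrast is partly given by the choice. In TKOL-only peaks without H3K9me3 the words were found in 18.4% under 5 kb and in 2.57% at 5 kb or more. Neither measure was used by the rule, but peaks that are copies of the same repeat are not independent, and no test was made across peaks.

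**Figure D2:**
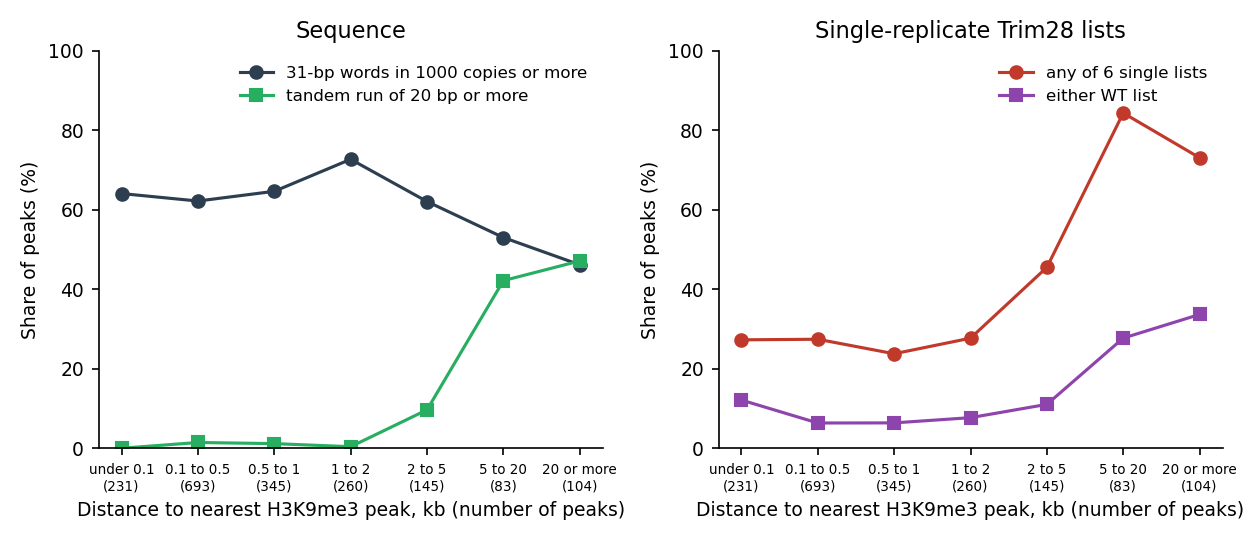
Shares of the 1861 shared Trim28 peaks without H3K9me3 (%) in bins of distance to the nearest H3K9me3 peak (kb, with the number of peaks in brackets). On the left, words in at least 1000 copies (dark) are at 46.2% and tandem runs of at least 20 bp (green) at 47.1% in the last bin. On the right, presence in any of 6 single-replicate Trim28 lists (red) and in either WT list (purple) is higher in the last 2 bins than in the others.

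Short motifs of transcription factors were searched on both strands in 300 bp around the midpoint. CCAAT, the box bound by NF-Y, was found in 1108 peaks (59.5%), in 46.8% of all TKOL Trim28 peaks, in 40.4% of the genome windows and in 33.6% of 300-bp windows at all 86842 annotated transcription starts. In sequence of at least 1000 copies the CCAAT share was 60.5% of these peaks and 53.8% of the genome windows. ATGCAAAT, the octamer bound by Oct4, was found in 177 peaks (9.51%), in 4.07% of all TKOL Trim28 peaks, in 2.73% of the genome windows and in 1.51% of windows at transcription starts. In peaks with at least 1000 copies the octamer share was 13.98%, and in the others it was 1.89%. Among genome windows with at least 1000 copies it was 5.93%. TGCCGC, the letters of the Zfp57 motif, were found in 18 peaks (0.967%), in 4.89% of all TKOL Trim28 peaks and in 1.81% of the genome windows. Most of the other motifs searched were rarer in these peaks than in all TKOL Trim28 peaks. Examples are those of ETS factors (0.591% against 2.71%), YY1 (0.269% against 4.35%) and Esrrb (0% against 0.244%). Those of Nrf1 (0.215% against 0.0730%) and Znf143 (0.215% against 0.105%) were commoner. A match says only that the letters are present.

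The peaks were small and weak beside shared peaks with H3K9me3, but not beside TKOL-only peaks. Their median width was 214 bp (range 100 to 2451 bp), against 529 bp for shared peaks with H3K9me3 and 162 bp for TKOL-only peaks without H3K9me3. The median fold enrichment was 3.04 in the pooled TKOL list, and 3.64 for the strongest overlapping peak of the pooled DKO0 list. For shared peaks with H3K9me3 these values were 3.57 and 4.53. Over all Trim28 peaks of each pooled list the medians were 3.19 in TKOL and 3.94 in DKO0. The median −log10 q-value in TKOL was 1.81, with a lowest value of 1.01, against a median of 3.19 for shared peaks with H3K9me3. TKOL-only peaks with H3K9me3 had a median width of 219 bp, a median fold enrichment of 3.04 and a median −log10 q-value of 1.91. In TKOL-only peaks without H3K9me3 the median fold enrichment was 2.93 and the median −log10 q-value 1.59.

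Most of these peaks were called only after replicates were pooled. In the single-replicate Trim28 lists, 619 of the 1861 (33.3%) were found at least once, against a background of 53.7% for all TKOL Trim28 peaks. The share was 71.0% in shared peaks with H3K9me3. In TKOL-only peaks it was 42.2% with H3K9me3 and 29.2% without. The number for these peaks, 619, falls to 421 without the first TKOL replicate, the longest list. That list alone held 198 of the 419 peaks found in exactly 1 list. The peak names in that list carry another prefix than those of the other Trim28 lists, and whether it was made in another run is not given in the sources used here. The first TKOL replicate held 333 of these peaks (17.9%) and the second 113 (6.07%), with 35 in both. In DKO0 the replicates held 155 (8.33%) and 125 (6.72%), with 29 in both. Over all TKOL Trim28 peaks these lists held 40.8% and 17.96% in TKOL and 17.4% and 15.9% in DKO0. The peaks in both replicates were 10.5% of those in the first and 30.97% of those in the second TKOL list, against 31.5% and 71.7% over all TKOL Trim28 peaks. In DKO0 they were 18.7% and 23.2%, against 60.1% and 65.8%.

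The WT Trim28 lists were not used by the rule, and show whether the same regions were called in cells with their own Dnmts. The first WT replicate held 137 of these peaks (7.36%, 95% Wilson interval 6.26 to 8.64) and the second held 70 (3.76%, 2.99 to 4.73). The intervals cover counting error only. Either WT list held 188 (10.1%), and both held 19 (1.02%). The backgrounds over all TKOL Trim28 peaks were 22.0% and 12.4% for the first and second WT list and 25.5% for either. Over genome positions free of H3K9me3, a stretch of 214 bp met a WT Trim28 peak at 0.130% and 0.122% of positions.

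In shared peaks with H3K9me3 the WT lists held 37.6% and 21.6%. The difference, without minus with H3K9me3, was -24.1 ± 8.76 percentage points (SD, n = 2 lists), with the lower share in the peaks without H3K9me3 in 2 of 2 lists. An exact two-sided sign-flip permutation test gave p = 0.5, the smallest that 2 lists allow (adjusted p = 0.833 over the 5 tests made). Within deciles of width the difference was -12.9 points, and with WT peaks of −log10 q of at least 5 it was -2.86 points.

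The peaks far from H3K9me3 were those most often found in WT. Either WT list held 58 of the 187 peaks at 5 kb or more (31.02%) and 130 of the 1674 closer peaks (7.77%). For TKOL-only peaks without H3K9me3 at 5 kb or more the share was 4.23%. Presence in WT also went with support in the J1 lists. Of the 1319 peaks in none of the 4 single-replicate TKOL and DKO0 lists, 77 (5.84%) were in a WT list, and of the 9 peaks in all 4, 6 (66.7%) were. The 13 peaks with an AGGC unit were in a median of 4 single-replicate lists, and 11 of them were in WT. Of the 29 with AGAGGC, 15 were in WT, and of the 21 with a run of A, 3 were.

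Uhrf1 was rarely found at these peaks. The share with a Uhrf1 peak was 1.07% and 0.913% in the WT lists, 1.13% and 0.645% in DKO0 and 1.13% and 0.967% in TKOL, which is 12 to 21 of the 1861 peaks in each list. Over all TKOL Trim28 peaks the backgrounds were 10.8% and 15.0% in WT, 7.05% and 4.60% in DKO0, and 9.18% and 5.08% in TKOL. In any of the 6 lists, 76 of these peaks (4.08%) met a Uhrf1 peak, against a background of 23.2%. Over genome positions free of H3K9me3, a stretch of 214 bp met a Uhrf1 peak at 0.0880% to 0.564% of positions, depending on the list.

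Shared Trim28 peaks with H3K9me3 served as the comparison. There the 6 lists held 6.95% to 22.9% of peaks, with a mean of 13.4% ± 6.04 (SD, n = 6 lists), against 0.976% ± 0.184 without H3K9me3. The share was lower without H3K9me3 in 6 of 6 lists, with a mean difference of -12.5 percentage points. An exact two-sided sign-flip permutation test over the lists gave p = 0.0312, the smallest that 6 lists allow, and p = 0.156 after adjustment over 5 tests, which did not pass 0.05. The gap was smaller at matched width. Within deciles of width the means were 0.974% and 5.34% and the difference was -4.36 points. With Uhrf1 peaks of −log10 q of at least 5 it was -1.52 points, and within 300 bp around the midpoint -6.62 points.

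Among peaks without H3K9me3, shared and TKOL-only peaks did not pass the test of a difference in Uhrf1. Their mean shares were 0.976% ± 0.184 and 1.22% ± 0.355 (SD, n = 6 lists), lower for shared peaks in 5 of 6 lists (exact sign-flip permutation test, p = 0.125, adjusted p = 0.312). The sign turned with Uhrf1 peaks of −log10 q of at least 5, to 0.0239 points higher for shared peaks, while within deciles of width the difference was -0.627 points (exact permutation p = 0.0312). Between lines, the difference in Uhrf1 at the shared peaks did not pass the test. The mean was 0.887% ± 0.342 in DKO0, 1.05% ± 0.114 in TKOL and 0.994% ± 0.114 in WT (SD, n = 2 lists each). Exact two-sided permutation tests gave p = 1 for DKO0 against TKOL (adjusted p = 1) and p = 0.667 for WT against TKOL (adjusted p = 0.833), in a design of 2 lists against 2 that cannot pass 0.05. These values do not show that the lines are alike.

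**Figure D3:**
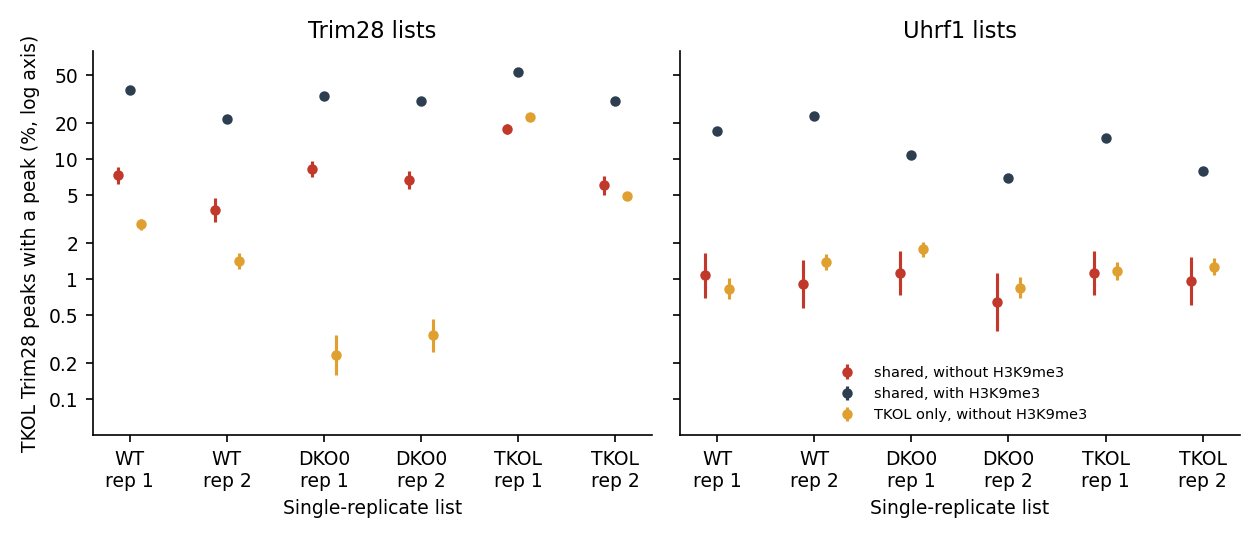
Share of TKOL Trim28 peaks (%, log axis) that met a peak of each single-replicate Trim28 list (left) and Uhrf1 list (right), for shared peaks without H3K9me3 (red), shared peaks with H3K9me3 (dark) and TKOL-only peaks without H3K9me3 (yellow). Bars are 95% Wilson intervals. In the Uhrf1 lists, the red points lie between 0.645% and 1.13% and the dark points between 6.95% and 22.9%.

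Uhrf1 was found repeatedly at a few of these peaks, which are named here after their values were seen. Peaks in all 6 Uhrf1 lists numbered 2. The first was an intergenic peak at chr10:126118036-126118487 29.2 kb from the miRNA gene AC122210.1, with a Uhrf1 fold enrichment of 2.71 and 4.17 in WT, 11.2 and 9.54 in DKO0 and 3.53 and 11.4 in TKOL. The second, at chr2:23146663-23146845 30.0 kb upstream of Nxph2, had 3.36 and 3.01 in WT, 4.75 and 5.70 in DKO0 and 6.64 and 6.38 in TKOL. A peak inside Tsix, the antisense transcript that opposes Xist on the X chromosome, was in 5 Uhrf1 lists at 3.28 to 6.50 and in 3 Trim28 lists at 3.90 to 4.74. It held no H3K9me3 peak within 25.4 kb. These enrichments are those of the strongest overlapping peak in each list and were not compared between lists.

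By position, 65 of the 1861 midpoints (3.49%, 95% Wilson interval 2.75 to 4.43) were at a promoter, defined as 1 kb to either side of a transcription start. Gene bodies outside promoters held 520 (27.9%), and 1276 (68.6%) were intergenic. The background of promoters over all TKOL Trim28 peaks was 3.92%, with 25.9% in gene bodies and 70.2% intergenic. Over genome positions free of H3K9me3 the shares were 4.26%, 38.9% and 56.8%. Shared peaks with H3K9me3 had 0.929% at promoters and TKOL-only peaks without H3K9me3 had 12.8%. Introns held 541 of the midpoints (29.1%) and exons 27 (1.45%), against 26.4% and 2.41% over all TKOL Trim28 peaks. Regions are not replicates, so these shares carry no test.

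The promoter share was 1.50% of the peaks under 1 kb from H3K9me3, 5.19% of those from 1 to 5 kb and 13.4% of those at 5 kb or more. For TKOL-only peaks without H3K9me3 at 5 kb or more it was 19.01%. None of the 9 peaks in all 4 single-replicate TKOL and DKO0 lists was at a promoter (0 of 9).

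**Figure D4:**
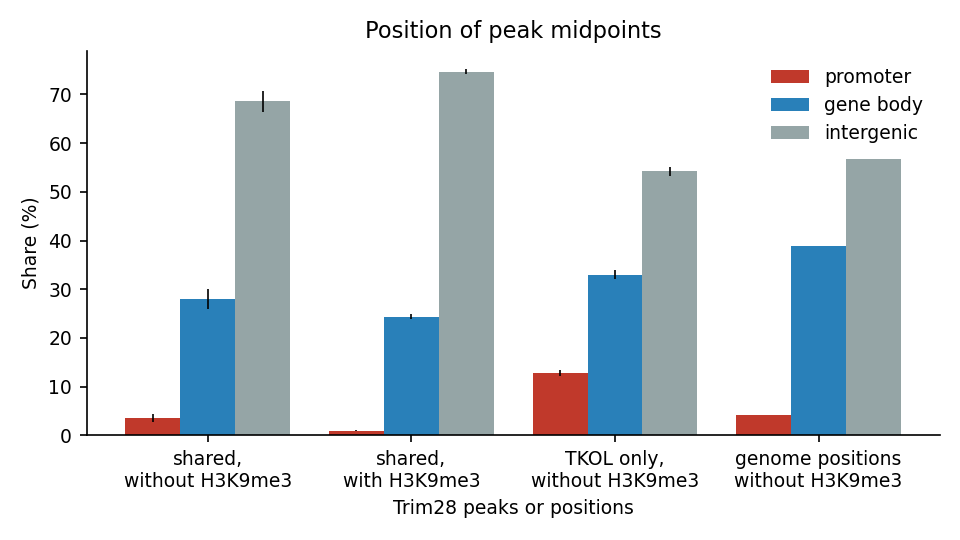
Share of peak midpoints (%) at promoters (red), in gene bodies (blue) and in intergenic sequence (grey), with 95% Wilson intervals, for 3 classes of TKOL Trim28 peaks and for genome positions free of H3K9me3. The shared peaks without H3K9me3 had 3.49% at promoters, between the shared peaks with H3K9me3 at 0.929% and the TKOL-only peaks at 12.8%.

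Promoter peaks were of mixed kinds, and 46 of the 65 had a protein-coding gene nearest. A CpG-rich group of 33, with 15 to 49 CpGs in 300 bp, lay close to the start, at a median of 175 bp, and had a median G+C content of 67.7%. The other 32 lay at a median of 663 bp with a median of 3 CpGs. GGGCGG, the box bound by Sp1, was found in 27 of the 65 promoter peaks (41.5%), 24 of them CpG-rich, and in 35.4% of windows at all transcription starts. At the promoter peaks, 9 were in a WT Trim28 list (13.8%) and 14 in a Uhrf1 list (21.5%). Over all 1861 peaks these shares were 10.1% and 4.08%, and over all TKOL Trim28 peaks 25.5% and 23.2%.

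Histone genes were the one listed group with members at its promoters. Of 70 histone cluster genes, 11 (15.7%) had one of these peaks within 1 kb of a transcription start, against a background of 0.193% of 37273 annotated genes. All 11 belong to the Hist1 cluster on chromosome 13, where neighbouring genes lie close together. The 7 peaks that accounted for them were all in TKOL replicate 1. The median copy number of their central words was 1 for the peak at Hist1h1c and 11 to 18 for the others. The linker histone gene Hist1h1c had a peak of 577 bp, with a Trim28 fold enrichment of 2.74 in WT replicate 2, 3.503 in DKO0 replicate 2 and 3.91 in TKOL replicate 1, and none in the other 3 lists. Hist1h3d, which encodes histone H3, had 3.20 in DKO0 replicate 1 and 4.85 in TKOL replicate 1. The peak of 300 bp shared by Hist1h2ad and Hist1h2bf, which encode H2A and H2B, had 3.80 in WT replicate 1 and 4.01 in TKOL replicate 1. None of the 7 peaks was in more than 3 of the 6 lists, and all 7 were CpG-rich.

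The other listed groups had none, namely Trim28 and its partner genes (0 of 31), pluripotency genes (0 of 26), imprinted genes (0 of 36), germline genes (0 of 29), genes of the 2-cell stage (0 of 13), genes named Zfp (0 of 367), ribosomal protein genes (0 of 80), complex I genes of mitochondria (0 of 41), clustered protocadherins (0 of 25), olfactory receptors (0 of 1249) and vomeronasal receptors (0 of 325). With 72 genes called in all, a count of 0 in a short list says little.

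Single promoters outside these lists were chosen for mention after their values were seen. Birc6, which encodes a large ubiquitin-conjugating inhibitor of apoptosis, had a peak at its start with 4.29 and 3.88 in DKO0 and 4.62 in TKOL replicate 1. Cltc, which encodes the clathrin heavy chain, had 4.28 in DKO0 replicate 1 and 4.34 in TKOL replicate 1, and a Uhrf1 peak in both DKO0 lists at 3.40 and 3.12. Immt, which encodes a protein of the inner mitochondrial membrane, had 5.83 in DKO0 replicate 1 and 8.80 in TKOL replicate 2. Mtf2, a Polycomb accessory factor, had 4.28 in DKO0 replicate 1 and 4.04 in TKOL replicate 1. These 4 peaks were in 0 of the 2 WT lists. That absence was usual, since 9 of all 65 promoter peaks (13.8%) were in a WT list.

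In gene bodies the peaks were spread over 425 genes, of which 333 held 1 peak. Only 35 genes held 3 or more, and most of them carried Gm symbols, led by Gm3002 with 7. Macrod2, which encodes an ADP-ribose hydrolase, held 4. The first 10 Mb of chromosome 14 held 90 of these peaks (4.84%), against 5.34% of TKOL-only peaks without H3K9me3, 0.822% of shared peaks with H3K9me3 and 2.39% of all TKOL Trim28 peaks. Of the 65 promoter peaks, 10 lay there. Predicted genes of near-identical sequence lie there, so that the gene assigned to each of these peaks is uncertain.

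The 13 peaks in 5 or 6 single-replicate lists were the most reproducible of the set, and 10 of them held a tandem run. The peak upstream of Arhgap11a lay 36.3 kb from its start and 25.6 kb from H3K9me3. Its Trim28 fold enrichment was 7.55 and 2.79 in WT, 8.47 and 4.33 in DKO0 and 5.11 and 7.30 in TKOL. The values of the 3 lines overlapped, and the lowest value was that of the second WT replicate. That list gave the same 2.79 at the peaks nearest Wapal and in Rpa1. It was also the median there of TKOL-only peaks without H3K9me3, so the value is not particular to this peak.

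The peak in an intron of Ube2a, which encodes a ubiquitin-conjugating enzyme, had 5.67 and 3.505 in WT, 8.35 and 6.25 in DKO0 and 9.89 in TKOL replicate 2, with none in TKOL replicate 1. Map2k3, which encodes a kinase of the stress-activated MAP kinase pathway, had a peak 13.9 kb from its start with 6.35 and 4.19 in WT, 6.43 and 7.48 in DKO0 and 4.98 in TKOL replicate 1. In Prdm16, a regulator of brown fat and of haematopoietic stem cells, the values were 4.78 and 5.32 in WT, 5.46 and 9.16 in DKO0 and 4.34 in TKOL replicate 1. All 3 peaks were therefore present in both WT lists, both DKO0 lists and 1 TKOL list, and they lay 55.9 to 94.4 kb from H3K9me3.

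The TKOL replicates differed in some of these peaks. The 3 peaks nearest Ube2a, AC162941.1 and SNORA16 were in TKOL replicate 2 at 7.34 to 9.89 and not in replicate 1. The AGGC peaks nearest Map2k3, Prdm16 and Usp10 were in replicate 1 at 3.71 to 4.98 and not in replicate 2. The other 3 AGGC peaks, nearest Arhgap11a, 1300002E11Rik and Gm4745, were in both. The repeat pair nearest Gm10139 and n-R5s30 was absent from WT replicate 2 only, and was also the only pair of the 13 with Uhrf1, at 3.11 to 3.83 in both WT lists.

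**Figure D5:**
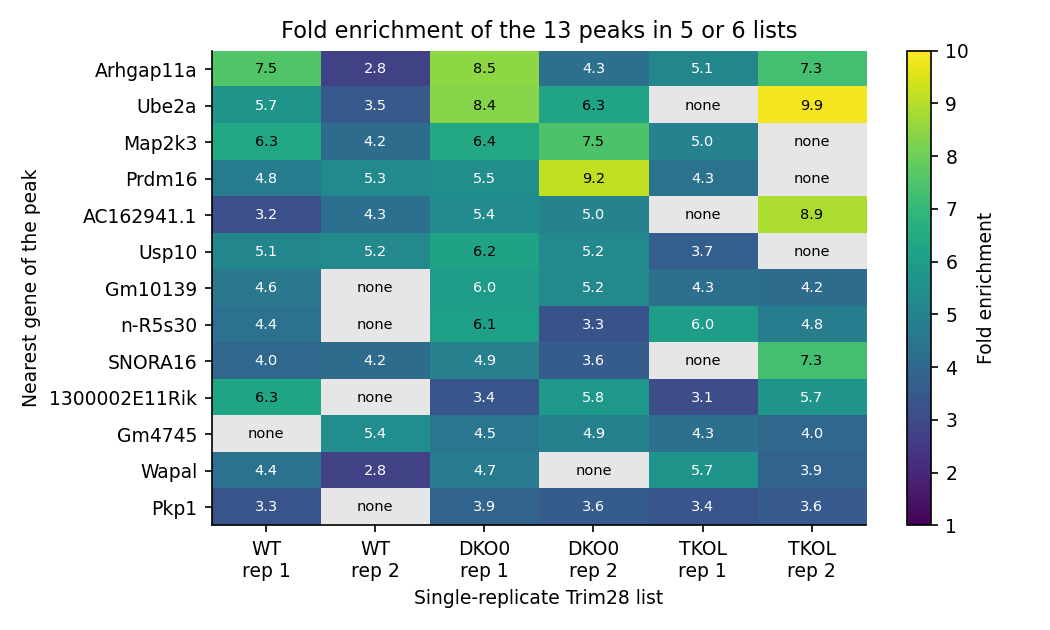
Fold enrichment (colour and number) of the 13 shared Trim28 peaks without H3K9me3 that were in 5 or 6 of the single-replicate Trim28 lists, by list, with the nearest gene of each peak on the vertical axis and grey where no peak was called. The peak nearest Arhgap11a is filled in every column, with values from 2.79 to 8.47.

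The 5 widest peaks were of another kind. The widest, of 2451 bp at chr8:126092400-126094850, lay next to the 5S ribosomal RNA gene n-R5s118, and was in 0 of the 6 single-replicate Trim28 lists. The next, of 1864, 1694, 1650 and 1471 bp, were nearest 2900079G21Rik, Cml2, Trim24 and a U6 gene, and each was in 0 or 1 of the 6 lists. All 5 lay 53 to 846 bp from H3K9me3, with medians of 51 to 685 copies of their central words.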

How the data were processed

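ChIP of Trim28, H3K9me3 and Uhrf1 was analysed from 24 deposited peak lists, 18 of single replicates and 6 of pooled TKOL or DKO0 replicates. The authors aligned reads to mm9 with BWA, removed duplicates with GATK, and called peaks with MACS2 at default settings. The deposited columns used were the fold enrichment (a ratio) and the −log10 p-value and −log10 q-value of each peak. Pooled lists were called by the authors on merged reads with input, so they are not independent of the single lists. Peaks were called shared at an overlap of 1 bp. A fold enrichment given for a list other than pooled TKOL is that of the strongest overlapping peak there. Promoters were 1 kb to either side of a GENCODE vM1 transcription start, by midpoint. Sequence was read from mm9, and scripts used Python 3.11.15, numpy 2.4.6, pandas 2.3.3, scipy 1.17.1 and pysam 0.24.0. Counting was tested on simulated data. Exact permutation tests ran over lists, with Benjamini-Hochberg adjustment over 5 tests, so p-values measure the spread between lists only. Named genes followed a rule: peaks in all 6 single Trim28 lists, up to 4 genes per gene list by geometric mean fold enrichment, the 5 widest peaks, and peaks at the edge of the rule. Exceptions are stated where they occur. The peaks and gene lists were chosen with earlier results of these data known. No library depth is given in the lists, and methylation data were not used here. Sequences of other peaks are not reported here.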

Additional observations from a re-analysis of the deposited data

How the results depend on the processing

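Of 67 alternatives, 45 were classed as unchanged and 6 turned the direction. For counts, unchanged meant within a preset factor of the main value, and for the promoter share within its interval. For tests it meant the same direction on the same side of 0.05. A further 6 kept the direction but rose above 0.05, and 1 kept it and fell below. Comparisons of 2 lists, or of 2 against 2, could not pass 0.05, so there only the direction could change. The number of peaks, 1861, became 592 at 1 kb or more from H3K9me3, 166 with the Trim28 and H3K9me3 lists limited to −log10 q of at least 5, 1137 at an overlap of 50% and 9 with a peak in all 4 single TKOL and DKO0 lists. The promoter share, 3.49%, became 2.26% within 500 bp of a start, 2.47% for protein-coding genes, 7.77% at 1 kb or more from H3K9me3, 0% for the 9 peaks in all 4 lists and 13.4% at 5 kb or more, the last chosen after seeing the data. For Uhrf1 against shared peaks with H3K9me3, leaving out each list gave differences of -13.7 to -10.6 percentage points, each with an exact permutation p = 0.0625, the smallest that 5 lists allow. Against TKOL-only peaks without H3K9me3, the difference of -0.239 points turned to 0.0327 where 50% of the Uhrf1 peak had to lie inside and to 0.0239 at −log10 q of at least 5, and was -0.627 within width deciles (exact permutation p = 0.0312). The cause was not tested. Between DKO0 and TKOL, the difference of -0.161 points turned to 0.161 with equal numbers of Uhrf1 peaks, and was -0.403 to 0.0806 leaving out each list. Between WT and TKOL it was -0.134 to 0.0269 leaving out each list. It turned without DKO0 replicate 2 in the first case, and without WT replicate 2 or TKOL replicate 1 in the second. Replicate numbers did not pair the samples (correlations of deviations of 0.0495, 0.00918 and -0.0231), and with the replicate number as a block the differences were -0.161 (exact permutation p = 1) and -0.0537 (exact permutation p = 0.5). Presence in WT stayed lower without H3K9me3 in every alternative run, at -30.3 to -17.9 points leaving out each list and -10.6 at 5 kb or more from H3K9me3. The last sets 18.98% against 29.6%, with widths not matched. Averaged over the width deciles of these peaks, shared peaks with H3K9me3 had 18.5%. No alternative combined distance and width, so a lower share in far peaks at matched width was not tested. The number in any single Trim28 list was 421 to 603 leaving out each list, an alternative chosen after seeing the data. The lists carry no read counts, so the depth behind weak peaks is unknown.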

Other observations

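The peaks with the highest pooled fold enrichment in TKOL were mostly far from H3K9me3. They were chosen after their values were seen, and the rule used these lists. Of the 5 highest, the peak nearest n-R5s30 is described above. A peak in Rnf185, which encodes a ubiquitin ligase, had a fold enrichment of 12.7 in the pooled TKOL list and 4.83 in the pooled DKO0 list, and was in 1 single-replicate list, TKOL replicate 1, at 6.45. A peak in Bckdhb, which encodes a subunit of the branched-chain ketoacid dehydrogenase, had 10.3 in TKOL and 26.7 in DKO0, and single values of 7.50 in DKO0 replicate 2 and 3.58 and 7.62 in TKOL. A peak 5.42 kb from the start of Dtl had 9.02 in TKOL and 3.30 in DKO0. A peak in Rpa1, a gene for a subunit of the single-strand DNA-binding replication protein A, had 7.84 in TKOL and 6.88 in DKO0, and 2.79 in WT replicate 2. These 4 peaks lay 6.79 to 20.5 kb from H3K9me3, each with a tandem run of 21 to 36 bp. None met a Uhrf1 peak, which was so for 1785 of all 1861 peaks.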
